A study of Mus musculus with 5 samples.

Results

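In mouse embryonic fibroblasts (MEFs), 358 of 871 CBX2 ChIP-Seq peaks were narrower than 15000 bp and contained no protein-coding gene start, that is, no 5′ end of a gene record. These away-from-start peaks numbered 137 of 289 in the Control list, 118 of 255 in the EZHIP list and 103 of 327 in the K27M list. They were chosen by peak width and by position against the protein-coding genes of GENCODE vM1 on mm9 (NCBIM37), so their narrowness and the lack of a start are not findings. The widest of them spanned 13600, 13800 and 14400 bp in the same order. The narrowest peaks without a start that the width limit left out spanned 15600, 15600 and 17200 bp and lay near Nr2f1, Foxa2 and Nr5a2. The remaining peaks were 287 shorter peaks at gene starts and 226 peaks of at least 15000 bp.

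The Control cells were the parental MEFs with loxP-flanked Eed alleles (EED floxed). The EZHIP cells were MEFs that carried a lentivirus for stable expression of human EZHIP, and the K27M cells carried one for the histone H3.3 K27M mutant. All 3 groups thus shared the unrecombined Eed background, and the transduced cells also expressed a transgene at a level that is not part of these data. Each group had 1 library and 1 peak list, so no difference between lists had a replicate check and no p-value was computed. The labels also name K27R and EEDnull CBX2 libraries, which were not analysed here. Fibroblast identity could not be checked against markers in lists of peak positions.

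CBX2 is a chromodomain subunit of Polycomb Repressive Complex 1 (PRC1), which compacts chromatin and ubiquitinates histone H2A. The chromodomain can bind histone H3 trimethylated at lysine 27, the mark that PRC2 deposits and that spreads from CpG-rich DNA, often at silent developmental genes. EZHIP and H3 K27M both inhibit PRC2. Much of the CpG-rich DNA outside annotated starts lies within developmental genes, between them, or at the starts of non-coding genes and of unlisted transcripts, and the positions of the away-from-start peaks were therefore described against each of these.

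Of the 358 peaks, 164 (45.8%) held a CpG island window and were not multi-copy, both as defined below. The sequence below the peaks is shown for 6 sites with such a peak. They are 3 sites with an away-from-start peak in every list and no gene body beneath, 1 such site inside Lhx2, the site farthest from any start in the EZHIP and K27M lists, and the widest peak that K27M had alone. Each is the 300 bp window with the most CpG dinucleotides within the stretch that all away-from-start peaks of the site share, on the plus strand of NCBIM37, with CpG in capitals.
Tbca site, chr13:95472586-95472885: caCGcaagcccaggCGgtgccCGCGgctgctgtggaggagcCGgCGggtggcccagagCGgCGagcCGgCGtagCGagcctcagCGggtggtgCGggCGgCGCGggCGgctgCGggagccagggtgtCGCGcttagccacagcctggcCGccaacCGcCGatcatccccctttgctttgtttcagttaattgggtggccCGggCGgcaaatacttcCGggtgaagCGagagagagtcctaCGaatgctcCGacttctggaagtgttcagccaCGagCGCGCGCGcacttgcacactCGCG
Cbx8 site, chr11:118914594-118914893: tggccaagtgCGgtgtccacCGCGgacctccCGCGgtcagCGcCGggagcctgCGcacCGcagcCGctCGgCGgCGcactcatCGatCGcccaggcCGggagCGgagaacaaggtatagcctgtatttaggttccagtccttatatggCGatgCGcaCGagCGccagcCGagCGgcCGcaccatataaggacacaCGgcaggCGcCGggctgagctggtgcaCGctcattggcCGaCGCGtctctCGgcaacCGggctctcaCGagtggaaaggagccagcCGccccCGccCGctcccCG
Parp8 site, chr13:117494383-117494682: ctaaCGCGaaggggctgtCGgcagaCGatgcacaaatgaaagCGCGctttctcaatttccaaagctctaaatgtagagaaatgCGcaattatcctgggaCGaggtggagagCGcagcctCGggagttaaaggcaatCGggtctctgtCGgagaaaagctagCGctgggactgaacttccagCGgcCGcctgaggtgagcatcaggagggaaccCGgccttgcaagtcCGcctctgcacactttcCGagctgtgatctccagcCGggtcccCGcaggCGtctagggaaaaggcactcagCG
Lhx2 site, chr2:38203493-38203792: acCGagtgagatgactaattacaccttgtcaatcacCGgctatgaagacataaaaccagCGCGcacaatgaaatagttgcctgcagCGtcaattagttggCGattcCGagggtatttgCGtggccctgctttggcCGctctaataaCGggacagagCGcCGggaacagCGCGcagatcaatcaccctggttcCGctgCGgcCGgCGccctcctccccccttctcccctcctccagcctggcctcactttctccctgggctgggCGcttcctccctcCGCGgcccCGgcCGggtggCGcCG
AY036118 site, chr17:39981210-39981509: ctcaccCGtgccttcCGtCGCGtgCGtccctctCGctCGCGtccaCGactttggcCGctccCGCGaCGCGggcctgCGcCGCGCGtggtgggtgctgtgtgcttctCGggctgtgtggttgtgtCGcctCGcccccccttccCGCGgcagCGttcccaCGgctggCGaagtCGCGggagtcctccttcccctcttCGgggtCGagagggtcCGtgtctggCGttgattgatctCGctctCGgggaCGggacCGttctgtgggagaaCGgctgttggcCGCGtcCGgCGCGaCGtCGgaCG
Irx4 site, chr13:73409315-73409614: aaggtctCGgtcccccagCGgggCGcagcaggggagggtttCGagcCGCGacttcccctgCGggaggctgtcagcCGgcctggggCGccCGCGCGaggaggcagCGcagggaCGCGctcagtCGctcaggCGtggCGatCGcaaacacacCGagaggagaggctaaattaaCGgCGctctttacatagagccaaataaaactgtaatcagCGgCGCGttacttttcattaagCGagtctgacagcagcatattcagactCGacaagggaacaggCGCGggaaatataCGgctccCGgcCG

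These windows held 36, 38, 22, 25, 45 and 32 CpGs in that order. Among 8527783 windows of 300 bp tiled over the genome, 0.0925% held at least as many CpGs as the Tbca window and 0.345% at least as many as the Parp8 window. For the AY036118 window, with an observed over expected CpG ratio of 1.20, the share was 0.027%. The windows were picked for CpG content within a peak, so these shares describe the printed DNA and do not test the peaks.

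Away-from-start peaks were of similar width in the lists. Their median width was 4400 bp (95% interval 3400 to 4800) for the Control list, 4600 bp (3800 to 5400) for the EZHIP list and 4800 bp (4200 to 6000) for the K27M list. They covered 691.2, 667 and 607.2 kb. Here and below, intervals are exact Clopper-Pearson for percentages, distribution-free binomial for medians and Newcombe for differences of percentages, all at 95%. They reflect counting error alone, with each peak taken as independent of its neighbours. Intervals for differences between lists also take the lists as independent, although they share sites. An away-from-start peak of Control overlapped 51 of 118 such peaks in EZHIP and 51 of 103 in K27M. These intervals therefore do not measure how the lists would vary between libraries. Control had 15 away-from-start peaks narrower than 2200 bp, the narrowest width in the other lists, and 14 of these 15 lay in the Control list alone.

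Away-from-start peaks lay between genes more often than within them in Control and about equally in EZHIP and K27M. Peaks that touched the body of a protein-coding gene made up 55 of 137 peaks for Control (40.1%, 31.9 to 48.9), 64 of 118 for EZHIP (54.2%, 44.8 to 63.4) and 52 of 103 for K27M (50.5%, 40.5 to 60.5). The share in EZHIP was 14.1 percentage points above that in Control (1.82 to 25.8), and the share in K27M was 10.3 points above it (-2.32 to 22.6). Of 534643 windows of 4600 bp tiled over the genome without a protein-coding start, 39.6% were genic. The Control share was thus close to that of the genome. The EZHIP and K27M intervals lay above it, the K27M interval by a small margin (lower bound 40.5% against 39.6%). The tiled windows had a single width and were not matched to the widths of the peaks. With all protein-coding transcripts as starts, the K27M share fell just below the tiled value, which was not recomputed. An exon was touched by 39 peaks in Control (28.5%), 42 in EZHIP (35.6%) and 41 in K27M (39.8%). Genic peaks without any exon beneath numbered 16, 22 and 11.

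Many away-from-start peaks lay close to a start that they did not contain. The median distance from the peak edge to the nearest protein-coding start was 15222 bp (7318 to 25774) for Control, 7379.5 bp (4210 to 13349) for EZHIP and 13600 bp (4535 to 29674) for K27M, against 72093 bp for the tiled windows. Within 1 kb of a start lay 25 peaks in Control, 27 in EZHIP and 22 in K27M, which is 18.2%, 22.9% and 21.4%, against 1.63% of tiled windows. More than 100 kb away lay 27, 12 and 12 peaks, which is 19.7%, 10.2% and 11.7%, against 42.8% of tiled windows. The intervals of the list medians overlap. Without multi-copy peaks the Control median was 7065 bp, and with starts within 1 kb counted as contained the medians were 25893.5, 14292 and 30372 bp for Control, EZHIP and K27M. By definition, a genic peak without a start lies on the transcribed side of the start of the gene it touches. Downstream of the nearest start, which can belong to another gene, lay 52 of 55 genic peaks in Control, 62 of 64 in EZHIP and 48 of 52 in K27M. Intergenic peaks lay upstream of the nearest start in 49 of 82, 39 of 54 and 32 of 51 cases.

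**Figure D1:**
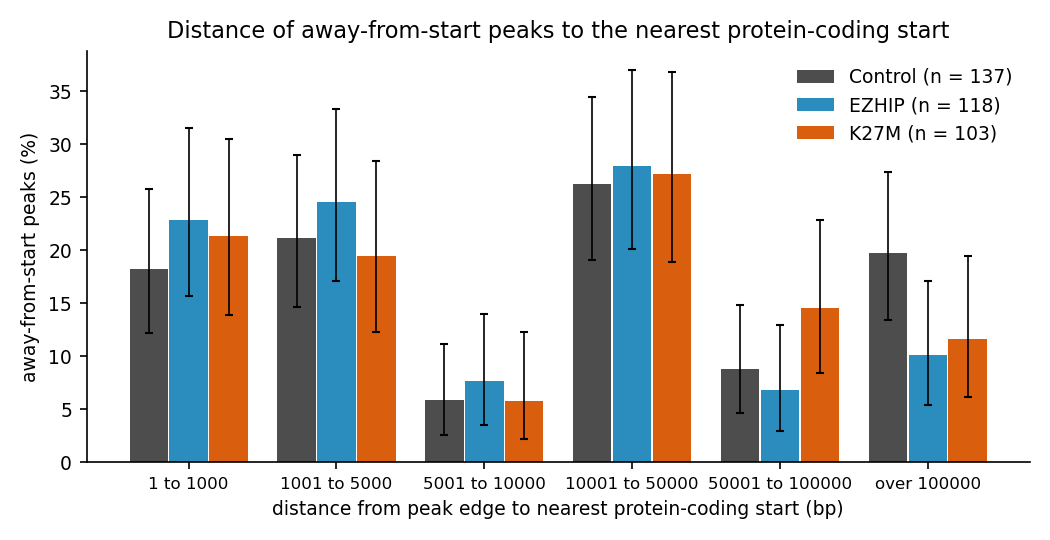
Share of away-from-start peaks (%, vertical axis) by distance from the peak edge to the nearest protein-coding start (bp, horizontal axis), with exact 95% intervals for counting error. The bars of the 3 lists have overlapping intervals in every bin, and the Control bar is the tallest beyond 100000 bp (19.7% against 10.2% and 11.7%).

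The closest misses show how finely the rule divides peaks. A Control peak of 3600 bp lay 5 bp downstream of the start of Aldh1a2, which encodes a retinoic acid-synthesizing enzyme. A K27M peak of 5600 bp lay 31 bp from the start of Lmx1a, a LIM homeobox gene, and it contained the start of another Lmx1a transcript. An EZHIP peak of 5400 bp lay 83 bp from Rsph3a, in DNA of which every sampled 32-mer (100%) occurred more than once in the genome. Starts of other transcripts of protein-coding genes fell inside 13 peaks in Control (9.49%), 20 in EZHIP (16.9%) and 19 in K27M (18.4%). These include peaks at H3f3b, which encodes histone H3.3, in all lists, and at Id3, an inhibitor of basic helix-loop-helix factors, in EZHIP. The farthest peak, 5200 bp wide in Control alone, lay 478909 bp from the start of Tsn.

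Developmental transcription factors were the nearest protein-coding genes of about 1 in 5 away-from-start peaks in every list. They were nearest for 30 peaks of Control (21.9%, 15.3 to 29.8), 28 of EZHIP (23.7%, 16.4 to 32.4) and 22 of K27M (21.4%, 13.9 to 30.5). The list held 359 genes, matched by family names, and left out some factors nearest to these peaks, such as Tbr1, Dbx2, Meox2 and Dmbx1. It makes up 1.61% of the 22367 protein-coding genes, and one of them was nearest to 2.73% of the tiled windows. Among shorter peaks at starts the shares were 45.7%, 41.2% and 38.0%. The peaks near these factors had 51 different nearest genes, and none of the 80 peaks was multi-copy as defined below. Genes of a list of developmental ligands, antagonists and receptors, at 0.80% of genes, were nearest to 1 EZHIP and 4 K27M peaks and to none of the 137 Control peaks, although Wif1, a Wnt antagonist gene outside that list, was nearest to 1 Control peak. Clustered duplicated families such as olfactory receptors, at 10.2% of genes, were nearest to 9, 5 and 4 peaks. Immediate early and highly expressed fibroblast genes were nearest to 2, 1 and 1.

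The peaks near developmental factors ranged from gene bodies to distant intergenic DNA. Lhx2, a LIM homeobox gene of forebrain and limb development, held a peak within its body that spanned 8200, 9200 and 10600 bp in Control, EZHIP and K27M. At chr19:59261601-59272000, 15975 bp upstream of Vax1, a homeobox gene of ventral forebrain and eye, the widths were 8600, 6200 and 10400 bp. Tbx5, a T-box gene of heart and forelimb, had a peak upstream of its start at chr5:120250801-120257200 with 5600, 3600 and 6400 bp. At En2, a homeobox gene of midbrain and hindbrain, an intergenic peak spanned 4200, 4000 and 10400 bp. In each of these 4 sites the K27M peak was the widest, and the order of Control and EZHIP varied.

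Peaks of other lists overlapped the away-from-start peaks less often than they overlapped all peaks. Of the Control peaks, 62 (45.3%, 36.7 to 54.0) had an EZHIP counterpart, against 66.4% of all Control peaks, and 88 (64.2%, 55.6 to 72.2) had a K27M counterpart, against 79.2%. Of the EZHIP peaks, 73 (61.9%, 52.5 to 70.6) had a Control counterpart, against 75.7%, and 76 (64.4%, 55.1 to 73.0) had a K27M counterpart, against 75.3%. Of the K27M peaks, 57 (55.3%, 45.2 to 65.1) had a Control counterpart, against 67.9%, and 38 (36.9%, 27.6 to 47.0) had an EZHIP counterpart, against 56.6%. A counterpart is a peak of the other list, of any class, that overlaps by at least 1 bp. In all 6 directions the upper bound lay below the value for all peaks of the list, but with a minimum width of 5000 bp it did so in 2 of them. Without multi-copy peaks the interval of the Control peaks with a K27M counterpart (74.2%, 64.3 to 82.6) also took in the value for all peaks. In both settings the value for all peaks was the one given above and was not recomputed for the reduced set. All peaks include the broad ones, of which at least 87.4% had a counterpart in each direction. Against shorter peaks at starts, the share in K27M peaks was 0.79 percentage points higher for a Control counterpart (-12.1 to 13.6) and 10.2 points lower for an EZHIP counterpart (difference -22.6 to 2.74 in points). For Control peaks it was 23.4 points lower for a K27M counterpart (-33.4 to -11.8) and 32.5 points lower for an EZHIP counterpart (-43.7 to -19.3). For EZHIP peaks it was 19.3 points lower for a Control counterpart (-30.7 to -6.66) and 12.1 points lower for a K27M counterpart (-23.9 to 0.81).

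Joined across lists, the peaks formed 239 sites. At 71 of these (29.7%) every list had some peak, and at 26 (10.9%) every list had an away-from-start peak. Control alone had 38 sites, EZHIP alone 34 and K27M alone 39, each with 1 peak. These are 27.7%, 28.8% and 37.9% of the away-from-start peaks, against 15.2%, 18.4% and 27.8% of all peaks and 6.17%, 14.1% and 40.5% of shorter peaks at starts. The counts were 11, 12 and 23 with a minimum width of 5000 bp, and Control alone had 16 sites without multi-copy peaks. Control and K27M without EZHIP shared 36 sites, Control and EZHIP without K27M 11, and EZHIP and K27M without Control 10. The lists differ in length, with 255 peaks in EZHIP, 289 in Control and 327 in K27M. Over all Control peaks, a K27M counterpart was likewise more frequent than an EZHIP counterpart (79.2% against 66.4%).

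Of the 26 sites with an away-from-start peak in every list, the 3 with the largest summed width lay in intergenic DNA, and the Lhx2 site came next. At chr13:95471401-95483600, 75298 bp upstream of the start of Tbca, a tubulin-folding cofactor, the peaks spanned 10800, 8600 and 12200 bp, again in the order Control, EZHIP and K27M. At chr11:118906601-118919600, 4318 bp upstream of Cbx8, which encodes another Polycomb chromodomain protein, they spanned 7600, 11000 and 12000 bp. The site at chr6:51126201-51139400, 98454 bp from the start of Gm9953, had 8000, 10400 and 10600 bp, and that at chr13:117492201-117501000, 313323 bp from Parp8, had 7800, 8600 and 8800 bp. No protein-coding gene body lay under these 4 sites, and each held a CpG island window, as in the sequences printed for Tbca, Cbx8 and Parp8. At Mafa, a bZIP factor gene, the peak widths were 2200, 3000 and 4400 bp. At Ccnd2, the cyclin D2 gene, an upstream peak had 3000, 4200 and 4400 bp.

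**Figure D2:**
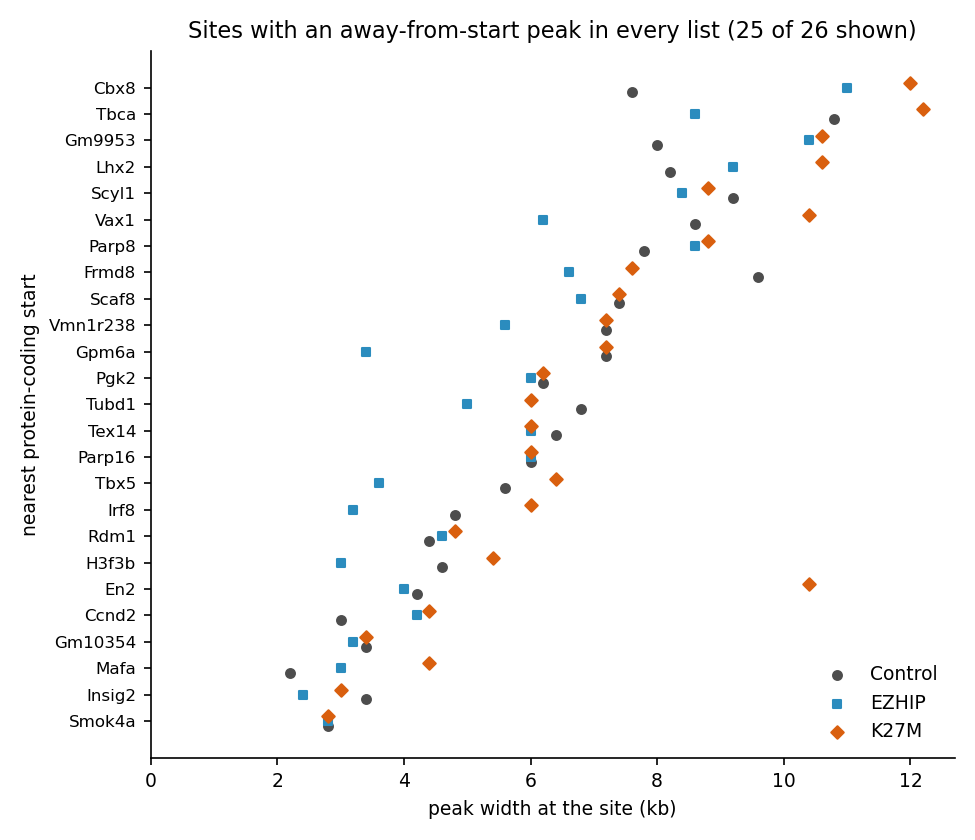
Peak width (kb, horizontal axis) in each list at 25 of the 26 sites with an away-from-start peak in all 3 lists, named by the nearest protein-coding start (vertical axis), 1 point per list. Widths run from 2.2 to 12.2 kb, and the largest spread is at En2, where the K27M peak spans 10.4 kb and the others 4.2 and 4.0 kb.

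A K27M counterpart often took in the gene start that a Control or EZHIP peak lay beside. Of the 88 Control peaks with a K27M counterpart, 21 met a K27M peak of at least 15000 bp and 16 a shorter one at a start. The K27M peak contained a protein-coding start for 33 of the 88 (37.5%), and for 31 it was the start nearest to the Control peak. The 29 genes reached in this way include 16 developmental transcription factors, and for 3 of the 29 (Esx1, Tcf21 and Tcfap2b) another Control peak already held the start. Of the 76 EZHIP peaks with a K27M counterpart, 32 (42.1%) had one that contained a start, with the nearest start reached for 30 peaks and 28 genes, 18 of them developmental transcription factors, and 2 of the 28 starts lay in another EZHIP peak. For scale, 38.0% of the shorter K27M peaks at starts had such a factor nearest, and the share among K27M peaks of at least 15000 bp was not computed. In the reverse directions, a counterpart with a start was met by 4 of 57 K27M peaks against Control (7.02%) and 3 of 38 against EZHIP (7.89%). Between Control and EZHIP they were 11 of 62 Control peaks (17.7%) and 13 of 73 EZHIP peaks (17.8%). The whole K27M list of 327 peaks also held more peaks of these kinds, 121 shorter ones at starts and 103 of at least 15000 bp. Control had 81 and 71 among 289 peaks, and EZHIP 85 and 52 among 255. The away-from-start peaks are short by choice in every direction, and read depth, which moves called widths, is unknown. The part of depth and of these list totals in the difference was not tested.

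**Figure D3:**
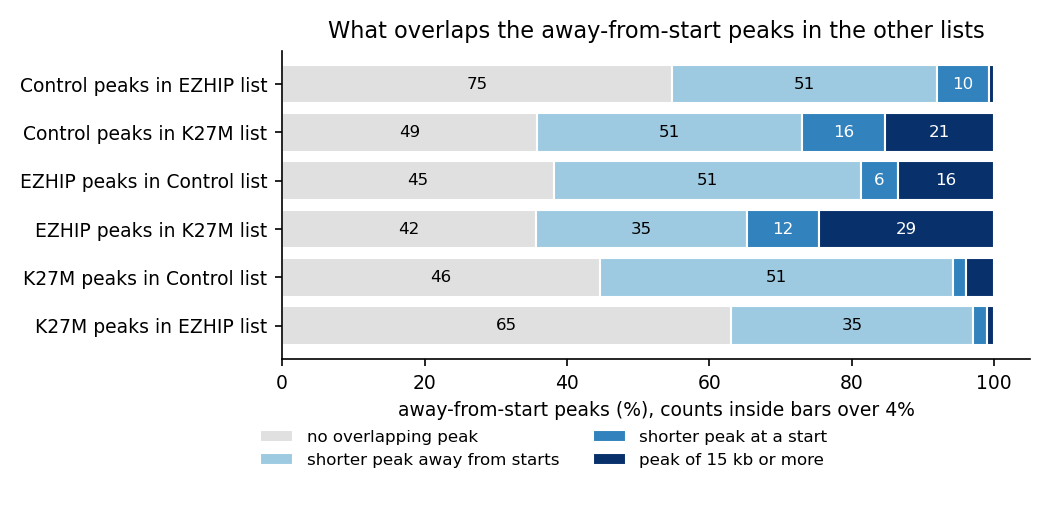
Class of the overlapping peak in another list for the away-from-start peaks of each list (bars, % of the peaks on the horizontal axis, with counts inside). K27M peaks of 15 kb or more or at a start overlapped 37 Control and 41 EZHIP peaks, while 6 K27M peaks had such a counterpart in Control.

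Named examples show the sizes involved. The Control peak upstream of Pax3, a paired box gene of neural crest and muscle progenitors, spanned 11600 bp and ended 4092 bp short of the start, which the K27M peak of 21400 bp contained. At Pax7, a related gene of muscle satellite cells, the Control peak spanned 10000 bp and the K27M peak 17200 bp. The EZHIP peak there, 12600 bp wide, also contained the start. At Cdx2, a homeobox gene of trophectoderm and posterior axis, the Control and K27M widths were 3400 and 24400 bp. At Lhx5, a LIM homeobox gene of the nervous system, they were 3200 and 16400 bp. Genes outside the factor list followed the same form at Gad2 (2600 and 10000 bp) and Slc32a1 (3800 and 10200 bp), both with roles in GABA signalling. The Gad2 start also lay in an EZHIP peak of 6000 bp. These and the examples of the next paragraph were chosen after their values were seen.

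EZHIP peaks also lay within or across the edge of domains that were broad in both other lists. At Nkx2-1, a homeobox gene of lung, thyroid and forebrain, the EZHIP width of 7600 bp stood against 19200 bp in Control and 31400 bp in K27M. At Six3, a homeobox gene of forebrain and eye, they were 5800, 21400 and 24000 bp. At Pou4f1, a POU factor gene of sensory neurons, they were 9000, 15800 and 17600 bp. Vax2, a homeobox gene of ventral retina, carried an EZHIP peak of 6400 bp and another of 9800 bp under 1 Control peak of 27400 bp and 1 K27M peak of 29800 bp. In total, 13 EZHIP peaks had a Control counterpart with a start, and 9 of the 11 nearest genes so reached were developmental transcription factors. Of the shorter Control peaks at starts, 45.7% had such a factor nearest, and the share among broad Control peaks was not computed. Few K27M peaks showed the opposite. At Irx5 an 8000 bp K27M peak 306 bp from the start was overlapped by a Control peak of 12000 bp that contained it, and at the histone gene Hist1h1d the widths were 6800 and 17400 bp.

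Width ratios depended on the list in which the away-from-start peak was taken. The K27M counterpart was wider than the Control peak in 65 of 88 cases, equal in 12 and narrower in 11, with a median log2 width ratio (K27M over Control) of 0.77 (0.36 to 1). Against EZHIP peaks the K27M counterpart was wider in 69 of 76 cases, equal in 3 and narrower in 4, with a median of 0.92 (0.50 to 1.46). Where both peaks were away from starts, so that both were under 15000 bp, the medians were 0.17 (0 to 0.28, n = 51) and 0.19 (0.067 to 0.36, n = 35). The EZHIP counterpart was wider than the Control peak in 30 of 62 cases and narrower in 26, with a median of 0 (-0.087 to 0.38). Starting from EZHIP peaks, the Control counterpart was wider in 47 of 73 cases and narrower in 20, with a median of 0.33 (0.070 to 0.50). Starting from K27M peaks, the Control counterpart was wider in 17 of 57 cases and narrower in 28, with a median of 0 (-0.26 to 0), and the EZHIP counterpart was wider in 7 of 38 and narrower in 28, with a median of -0.12 (-0.32 to -0.047). These ratios use the width that chose the peaks and are descriptions. No away-from-start peak overlapped more than 1 peak of another list.

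**Figure D4:**
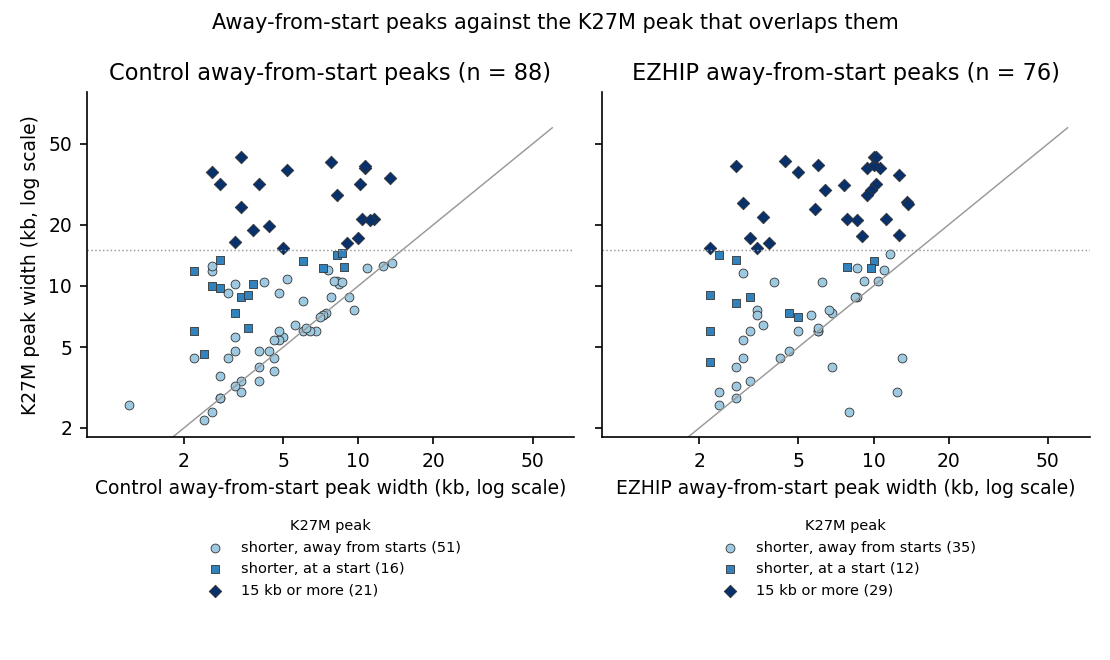
Width of the overlapping K27M peak (kb, log scale, vertical axis) against the width of the Control (left, 88 peaks) or EZHIP (right, 76 peaks) away-from-start peak (kb, log scale, horizontal axis), 1 point per peak, with equal widths on the solid line and 15 kb dotted. Most points lie above the line, 65 on the left and 69 on the right.

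CpG-rich DNA was common beneath the away-from-start peaks and most common in K27M. A CpG island window was a 500 bp stretch of 55% G+C or more whose CpG ratio, observed over expected, reached 0.65. Such a window lay within 56 of 137 peaks (40.9%, 32.6 to 49.6) for Control and 55 of 118 (46.6%, 37.4 to 56.02) for EZHIP. For K27M it lay within 69 of 103 (67.0%, 57.0 to 75.9). The K27M share exceeded Control by 26.1 percentage points (13.4 to 37.6) and EZHIP by 20.4 points (7.28 to 32.5). The excess over EZHIP was 12 points (-6.11 to 28.9) with a minimum width of 5000 bp and 11.2 points (-0.17 to 22.0) with a 200 bp window. That over Control was 20.1 (1.46 to 36.9) and 19.5 points (7.99 to 30.0) under these settings. Of the tiled 4600 bp windows without a start, 1.52% held such a window. Shorter peaks at starts held one in 92.6% of cases for Control, 95.3% for EZHIP and 95.04% for K27M. At the 26 sites shared by all lists the window was present at Lhx2, Vax1, Tbx5 and Mafa among others, and no such window lay at Malat1, Neat1 or the Mir21 site.

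Repeated DNA made up a larger part of the Control list. Peaks with at least 50% of their sampled 32-mers present more than once in the genome (multi-copy) numbered 40 for Control (29.2%, 21.7 to 37.6), 18 for EZHIP (15.3%, 9.30 to 23.0) and 15 for K27M (14.6%, 8.39 to 22.9). The EZHIP share was 13.9 percentage points lower than the Control share (difference -23.7 to -3.66 in points), and the K27M share was 14.6 points lower (-24.4 to -3.97). Tiled windows without a start were multi-copy in 10.7% of cases. Peaks of at least 15000 bp were multi-copy in 22.5%, 19.2% and 14.6% of cases in Control, EZHIP and K27M. The away-from-start share differed from these by 6.66 (-6.34 to 18.2), -3.98 (-17.7 to 7.36) and 0 points (-9.80 to 9.80). Repeated DNA was thus not particular to the away-from-start peaks. Among shorter peaks at starts the shares were 4.94%, 7.06% and 4.13%. Multi-copy peaks lay farther from starts, with a median of 32272 bp (16855 to 65635) in Control against 3202 bp (1045 to 7318) for CpG island peaks outside the multi-copy class. An aligner at its default settings places a read with several equal matches at 1 of them, and the part of this in the multi-copy peaks was not tested.

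**Figure D5:**
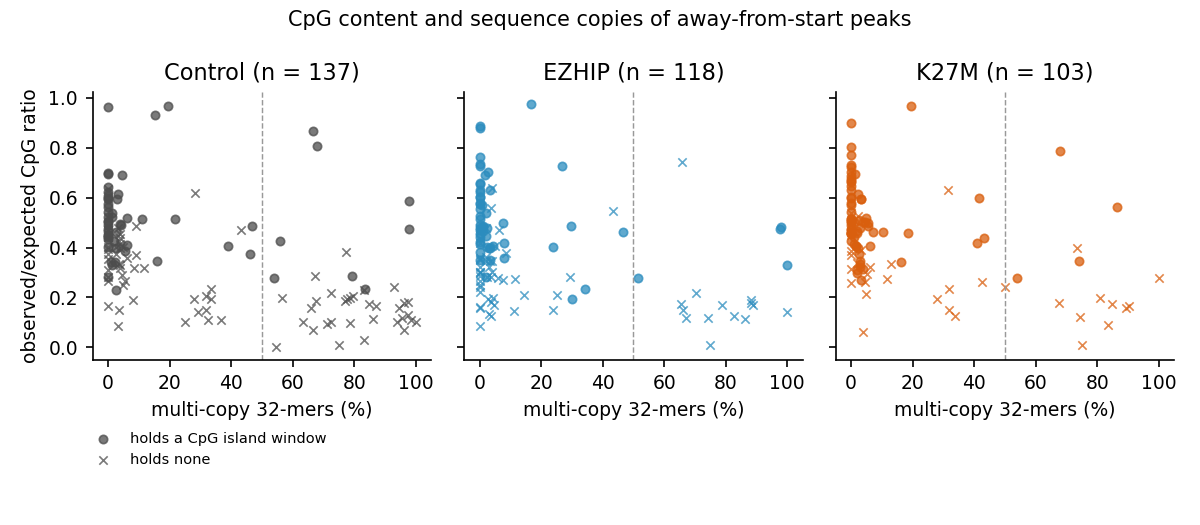
Observed over expected CpG ratio (vertical axis) against the share of sampled 32-mers that occur more than once in the genome (%, horizontal axis), 1 point per away-from-start peak and 1 panel per list, with circles for peaks with a CpG island window, crosses for the others and a dashed line at 50%. Right of the line lie 40 Control, 18 EZHIP and 15 K27M peaks, mostly crosses.

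Presence across lists differed by sequence class. Of the 48 Control peaks that held a CpG island window but were no multi-copy peaks, 41 (85.4%, 72.2 to 93.9) had a K27M counterpart and 31 (64.6%, 49.5 to 77.8) an EZHIP counterpart, and 4 were in Control alone. Of the 65 K27M peaks of this class, 30 (46.2%, 33.7 to 59.0) had a Control counterpart and 33 (50.8%, 38.1 to 63.4) were in K27M alone. Multi-copy peaks of Control were alone in 22 of 40 cases, a share between 38.5% and 70.7% by its interval. Peaks of neither class were alone in 23 of 49 EZHIP cases (46.9%, 32.5 to 61.7), 12 of 49 Control cases (24.5%, 13.3 to 38.9) and 4 of 23 K27M cases (17.4%, 4.95 to 38.8).

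The sites of each list alone were thus of different kinds. In K27M alone, 33 of 39 peaks (84.6%, 69.5 to 94.1) held a CpG island window and were not multi-copy, 29 (74.4%, 57.9 to 87.0) were genic and 8 (20.5%, 9.30 to 36.5) had a developmental transcription factor nearest. Among these were Irx4 (11800 bp), Nkx2-2 (7200 bp), Tbx1 (6800 bp), Lhx3 (6800 bp) and Sall4 (5400 bp), genes of heart, ventral neural tube, pharyngeal arch, pituitary and embryonic stem cell biology, and peaks within Shh (2200 bp), a secreted patterning signal, and Col2a1 (3400 bp), the main collagen of cartilage. In Control alone, 22 of 38 peaks (57.9%, 40.8 to 73.7) were multi-copy, 9 (23.7%, 11.4 to 40.2) were genic and 1 had a listed developmental factor, Gata6, nearest, beside another at Tbr1, a T-box gene outside the list. The widest were at chr16:3342401-3351600, 240798 bp from an olfactory receptor gene, with 9200 bp, and at Gm14418, near Mycs and near Gm17267, with 8400 bp each. The chr16 peak was among 7 of 137 Control peaks within 500 kb of the first bases of a chromosome sequence, against 2 of 118 in EZHIP and 3 of 103 in K27M. In EZHIP alone, 24 of 34 (70.6%, 52.5 to 84.9) were genic and 23 (67.6%, 49.5 to 82.6) were of neither sequence class. The widest lay in Trps1, a GATA-type zinc finger gene (7200 bp), in Eef1a1, the translation elongation factor gene (5400 bp), near Ppara (5400 bp), the fatty acid-sensing receptor gene, and at Rsph3a (5400 bp). Widths in 1 list alone were small, with medians of 2600, 3600 and 3800 bp for Control, EZHIP and K27M.

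Starts of non-coding genes lay inside about 1 in 5 away-from-start peaks. They fell in 25 peaks for Control (18.2%, 12.2 to 25.7), 22 for EZHIP (18.6%, 12.1 to 26.9) and 25 for K27M (24.3%, 16.4 to 33.7), against 2.33% of the tiled windows. Shorter peaks at starts held one at a similar rate (20.9% over the lists, against 20.1%), and peaks of at least 15000 bp did so in 43.8% of cases. The genes comprised 18 processed transcripts, 14 small nuclear RNAs (snRNAs), 9 long intergenic non-coding RNAs, 9 microRNAs, 8 pseudogenes and 2 small nucleolar RNAs. One of them, Gfi1, is listed as a processed transcript in GENCODE vM1 but as protein-coding in RefSeq. Its start lay in Control (10400 bp) and EZHIP (11200 bp) peaks, so these 2 peaks are away from a start only by the annotation used. The start of the antisense neighbour A430072P03Rik lay in the same peaks.

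Long nuclear RNAs and the snRNA genes of the spliceosome were among the sites of every list. Malat1, an abundant nuclear speckle RNA, lay wholly in peaks on chromosome 19 that spanned 9200, 8400 and 8800 bp in Control, EZHIP and K27M. The start of the neighbouring Neat1, the scaffold RNA of paraspeckles, lay in peaks of 9600, 6600 and 7600 bp. A pair of U5 genes on chromosome 9 lay in peaks of 6000 bp in each list, and a pair of U2 genes on chromosome 11 in peaks of 4400, 4600 and 4800 bp. A U1 and a U2 gene are shown, since their peaks on chromosome 11 began and ended near the gene pair, with the stretch that pairs with the splice site (U1) or the branch point (U2) in capitals, 5′ to 3′ on the strand of the gene and from NCBIM37.
U1, chr11:87236369-87236532, plus strand: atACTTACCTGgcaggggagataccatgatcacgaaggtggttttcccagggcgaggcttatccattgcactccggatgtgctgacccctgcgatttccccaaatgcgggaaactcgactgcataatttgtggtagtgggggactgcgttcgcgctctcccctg
U2, chr11:101503062-101503252, plus strand: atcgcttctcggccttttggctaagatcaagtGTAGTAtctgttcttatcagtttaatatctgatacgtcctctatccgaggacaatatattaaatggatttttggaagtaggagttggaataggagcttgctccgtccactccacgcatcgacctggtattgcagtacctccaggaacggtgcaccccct

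The U2 pair spanned 4183 bp, and the Control peak around it reached 61 bp beyond the outer end of one gene and 156 bp beyond that of the other. The U1 pair in Tex14 on chromosome 11 spanned 4013 bp, and the margins of its Control peak were 168 and 219 bp. A U1 pair on chromosome 3 had margins of 77 and 384 bp in Control and 277 and 184 bp in K27M. On chromosome 12 the fit was looser, and the larger margin was 432 and 4741 bp at the Control peaks around U1 pairs and 4632 and 4941 bp at the EZHIP peaks. Both edges of a peak were set in steps of 200 bp.

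U1 genes varied between lists, while the U2 and U5 pairs lay in peaks of every list. Of 206 genes named U1, 10 had 1 of the 3 sequences found in away-from-start peaks. Control peaks contained 8 of these 10, EZHIP peaks 6 and K27M peaks 2, and no peak of another class contained any of the 10. Over all 206 genes named U1 and peaks of any class, the counts were 11, 8 and 6. The pair in Tex14 lay in a 4400 bp Control and a 4600 bp EZHIP peak, and 4 more copies lay in chromosome 12 peaks of the same lists that were 97.8% to 97.9% multi-copy. The chromosome 3 pair lay in peaks of 2800 bp in Control and K27M. Of 4 annotated genes with the printed U2 sequence, the same number, 2, lay in peaks of each list. Reads from identical copies cannot be told apart, so counts at U1 and U2 genes are uncertain.

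Exact matches of RefSeq hairpins placed 5 microRNA genes in the away-from-start peaks. Mir21a, within the host gene Vmp1, lay in peaks of 6800, 5000 and 6000 bp in the 3 lists. Mir9-3, a neural microRNA gene, lay in an 11000 bp peak of K27M alone, and Mir125b-1 lay 8 bp inside the edge of a 5000 bp peak of EZHIP alone. The mature RNAs of these 3 are given from RefSeq (GRCm38.p6) with the seed, bases 2 to 8, in capitals, and no seed is shared.
mmu-miR-21a-5p: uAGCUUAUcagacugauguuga
mmu-miR-9-5p: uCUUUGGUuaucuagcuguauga
mmu-miR-125b-5p: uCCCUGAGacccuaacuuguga

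Mir1894, in Ppp1r10, lay in a 2000 bp peak of Control alone, and Mir6935 in the peaks of Control (4600 bp) and K27M (4400 bp) at the actin gene Actg1. Mir124a-1, a neural microRNA gene named by the annotation, started within a K27M peak of 9200 bp, 61239 bp from the nearest protein-coding start.

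The site farthest from any start in EZHIP and K27M was at chr17:39979801-39986000. It had peaks of 6200, 6000 and 6200 bp in Control, EZHIP and K27M, contained the start of the pseudogene AY036118 and held 99.5 CpGs per kb over its shared 6000 bp. The corresponding densities were 27.9 per kb at the Tbca site, 29.1 at Cbx8, 20.4 at Parp8, 10.9 at Lhx2 and 31.7 at Irx4. At the AY036118 site, 19.4%, 16.7% and 19.4% of sampled 32-mers occurred more than once in NCBIM37, in the order Control, EZHIP and K27M. This score cannot count copies that NCBIM37 lacks. How many copies of this DNA the cells hold, and the part of such copies in the peaks, was not tested.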

How the data were processed

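CBX2-bound DNA was mapped by ChIP-Seq from crosslinked chromatin that was digested with micrococcal nuclease and then sonicated. The authors aligned reads with bowtie (Bowtie 1.0.0 in the submitters' processing notes) to mm9 and to a spike-in genome and called broad peaks with MOSAiCS-HMM, 1 list per library. The use of input and any scaling before calling are not given in the sources used here. The deposited lists hold positions in bp only, without score or height, and read depth is unknown.

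Peaks were read as runs of 200 bp bins, with 1-based ends included, and compared with GENCODE vM1 and the NCBIM37 sequence (python 3.11.15, numpy 2.4.6, pandas 2.3.3, scipy 1.17.1, numba 0.67.0, samtools 1.23.1). Repeats were scored from 32-mers sampled every 100 bp. The overlap, distance, island and copy steps were tested on simulated data.

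The peaks, classes and gene lists were chosen with earlier results of these data known. Named sites were, by rule, the widest shared sites, the widest in each list alone, the farthest, widest and narrowest peaks, and leading non-coding and developmental sites. Other genes were named after their values were seen. Alternatives covered width limits, definitions of a start, overlap rules, autosomes and sequence classes. Of the 5 libraries in the labels, 3 were used. Some named sites and 1 sequence are not reported here.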

Additional observations from a re-analysis of the deposited data

How the results depend on the processing

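Across 14 settings, 267 of 297 recomputed values stayed within the interval of the reported value (counts within 1.5 times), and 30 moved. Whether any difference between lists changed direction was not tested. The setting with a RefSeq coding gene set and that with a minimum width of 2200 bp were chosen after seeing the data. No value moved with width limits of 10000 or 20000 bp, autosomes only, the other overlap rules, gene bodies at midpoints or the RefSeq genes. A minimum width of 5000 bp left 54 Control, 55 EZHIP and 50 K27M peaks, with 14 sites in all lists and 11, 12 and 23 in Control, EZHIP and K27M alone. At that width a non-coding start lay in 25.9%, 36.4% and 36% of the Control, EZHIP and K27M peaks, a K27M counterpart met 75.9% of Control peaks and a Control counterpart 72.7% of EZHIP peaks. A CpG island window then lay in 51.9% of Control and 60% of EZHIP peaks, and 34% of K27M peaks had a developmental factor nearest. A minimum of 2200 bp left 24 sites in Control alone. Without multi-copy peaks, Control alone had 16 sites, its median distance was 7065 bp, 74.2% of its peaks had a K27M counterpart and 30.9% a developmental factor nearest. Counting a start within 1 kb as contained gave median distances of 25893.5, 14292 and 30372 bp for Control, EZHIP and K27M and 30.4% genic Control peaks. With all protein-coding transcripts as starts, 39.3% of K27M peaks were genic. A CpG island window of 200 bp lay in 62.0%, 70.3% and 81.6% of Control, EZHIP and K27M peaks, and a 25% limit called 39.4% of Control and 23.3% of K27M peaks multi-copy. Where the construction does not show it (fewer peaks, or a looser class), the cause was not tested here. No paired analysis was possible because no group held more than 1 library, and none could be left out either. Unknown depth limits every difference in the number and width of peaks between lists.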
